A study of Mus musculus with 4 samples.

Results

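The nuclei described here carry the annotation Tcell, the smallest of the 3 T lymphocyte clusters in a single-nucleus ATAC-seq series of mouse inguinal white adipose tissue (iWAT), the fat pad under the skin of the groin. ATAC-seq tags DNA that a transposase can reach, so that its signal is the accessibility of chromatin and not RNA. The members were taken by the authors' deposited annotation: all 1610 nuclei labelled Tcell, which is 4.95% of the 32552 nuclei of the series. The other lymphocyte clusters, used for comparison, were Cd4 with 3741 nuclei, Cd8 with 4463 nuclei and Bcell with 11967 nuclei.

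All mice were C57BL/6 males of 8 weeks with no transgene or deletion. Mice at day 0 stayed at room temperature (22 °C; day0RT). Mice in the cold were kept at 6.5 °C for 1, 3 or 7 days (day1C, day3C and day7C). Other mice, kept at room temperature (22 °C), received CL-316,243 (CL), an agonist of the β3-adrenergic receptor. The dose was 1 mg/kg for 1, 3 or 7 days (day1CL, day3CL and day7CL). There were 3 mice in each of the 7 groups, and nuclei came from the whole pad. None of the 7 groups is labelled as given vehicle or as untreated for 1, 3 or 7 days. The only control is thus day0RT. The sources used here do not say whether the lymph node within this pad was removed.

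The Tcell nuclei of 1 mouse were summed to 1 library, with 8 to 120 nuclei per mouse. Mouse 2 of day3CL had 8 Tcell nuclei, under the minimum of 10, and was left out, so that 20 libraries remained and day3CL was represented by 2 mice. The libraries held 19163 to 201237 counts in genes with a median of 95432, where 1 count is 1 nucleus with reads in 1 peak. The median nucleus held 1012 peak counts in Tcell, 907 in Cd4, 1035 in Cd8 and 974 in Bcell. Tests between clusters used the same 20 mice in every cluster, with the mouse as a block. Shares of single nuclei rest on the numbers of mice given with them.

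Some libraries and nuclei stood apart. In 3 mice few nuclei belonged to the lymphocyte clusters: 11.9% in mouse 3 of day1CL, which had 17 Tcell nuclei, 14.1% in mouse 2 of day3CL, and 36.8% in mouse 1 of day3C, which had 19 Tcell nuclei. In the other 18 mice this share was between 58.2% and 90.8%. Barcodes were also shared: 4218 barcodes were listed in more than 1 mouse, and 393 Tcell nuclei (24.4%) carried such a barcode. The sharing lay between 18 pairs of mice, all of the same treatment and replicate number at different days, and none involved a day0RT mouse. Nuclei that shared a barcode had the same cluster label in 21.5% of 4824 pairs, where 20.7% would be reached if their labels were unrelated. The counts over all genes and for the regulatory and naive lists are therefore also given without these nuclei and without the 2 of these mice that entered the fits.

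T lymphocytes recognise antigen through a receptor that is paired with the CD3 complex, and most mature ones carry either CD4, the coreceptor of helper cells, or CD8, the coreceptor of cytotoxic cells. Naive T cells circulate between blood and lymph nodes with the help of homing receptors, and antigen experience replaces this state by activated or resident ones. Regulatory T cells, governed by the transcription factor FOXP3, restrain other immune cells and are well known residents of adipose tissue. Small populations with a γδ receptor, or with features of innate cells, also live in fat.

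The label was checked first with genes that mark all T cells. *Cd3e* (chr9:44998740-45009627), a chain of the CD3 complex, had an accessibility of 31.2 CPM in the lowest Tcell library, 95.7 in the median and 174.1 in the highest. CPM here means counts over the gene body and the 2000 bases before it, scaled so that the genes of a library sum to 10 to the power of 6. In Bcell the same gene ranged from 0 to 22.9 CPM, so that no Bcell library reached the lowest Tcell library. *Bcl11b* (chr12:107910403-108003602), a transcription factor that commits cells to the T lineage, ranged from 313.1 to 629.4 CPM in Tcell with a median of 455.9. Its range was 383.1 to 688.7 in Cd4 and 395.8 to 671.7 in Cd8, overlapping with Tcell, against 0 to 16.7 in Bcell.

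Both levels lay slightly under those of the other T clusters. *Cd3e* averaged 99.9 ± 36.1 CPM in Tcell (SD, n = 20 mice), 119 ± 39.8 in Cd4 and 124 ± 22.6 in Cd8, and the log2 differences of -0.26 ± 0.11 (SE) and -0.17 ± 0.11 did not pass. *Bcl11b* was lower than in Cd4 by a log2 difference of -0.28 ± 0.06 and lower than in Cd8 by -0.19 ± 0.06. With promoters only the difference against Cd8 turned to 0.0891 and did not pass. The 3 comparisons of clusters share the Tcell libraries, and the authors drew the clusters from these same counts, so that a difference between clusters is a description and not an independent test. An adjusted p under 0.05 from edgeR's quasi-likelihood test was used only to decide which genes are counted as higher or lower.

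By that rule, 1687 of 9151 genes (18.4%) differed between Tcell and Cd4, with 897 higher (9.8%) and 790 lower (8.63%). Against Cd8 the share was 19.9%, with 848 genes higher (9.27%) and 971 lower (10.6%). With DESeq2 this order turned, with more genes higher than lower. Against Bcell it was 48.6%, with 2199 higher (24%) and 2251 lower (24.6%). Without nuclei of shared barcodes the counts were 1190, 1318 and 3592 genes, and without the 2 lymphocyte-poor mice 1720, 1848 and 4564. They moved further when only peaks at promoters were summed (353, 373 and 1861 genes) and when each nucleus was thinned to 500 counts (450, 498 and 1567 genes), which leaves fewer counts. The median log2 difference over all tested genes was -0.01, 0.00 and -0.04 in the 3 comparisons.

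The pan T cell list held 18 genes, of which 17 had a peak and were tested. All 17 were higher in Tcell than in Bcell, with a median log2 difference of 2.69, beside 24% of all tested genes. Against Cd4, 5 of the 17 were lower and none higher (median -0.19), and against Cd8, 6 were lower and none higher (median -0.15), beside 8.63% and 10.6% of all tested genes that were lower. *Cd28*, the costimulatory receptor, averaged 166 CPM in Tcell and 229 in Cd4. The constant regions of the αβ receptor did not differ: *Trac* averaged 83.2 CPM in Tcell, 73.8 in Cd4 and 74.0 in Cd8, and *Trbc2* 80.7, 89.9 and 77.8.

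Of the CD4 lineage list, 5 of 6 genes were tested. *Cd4* itself (chr6:124864692-124888221) had 0 to 106.8 CPM in Tcell with a median of 57.2, 49.1 to 123.4 in Cd4, 10.2 to 44.3 in Cd8 and 0 to 5.57 in Bcell. The Tcell median thus lay between the medians of Cd4 (81.4) and Cd8 (28.1). Tcell libraries overlapped with both clusters, and 2 of them held 0 counts. The log2 difference was -0.49 ± 0.16 against Cd4 and 1.15 ± 0.19 against Cd8. The filter on low counts asked for 48.9 CPM in at least 17 of the 80 libraries, which *Cd4* met only with the Cd4 libraries. *Zbtb7b*, which encodes ThPOK, the factor that directs cells to the CD4 fate, averaged 287 ± 54.4 CPM in Tcell, 352 ± 80.1 in Cd4 and 113 ± 23.5 in Cd8, and was higher than in Cd8 in 20 of 20 mice. *Cd40lg*, the helper ligand for B cells, followed the same order (75.8, 108 and 43.4 CPM). *Icos*, a costimulatory receptor, averaged 97.5 CPM in Tcell and 76.1 in Cd4, and it counted as higher by the rule but not without nuclei of shared barcodes, without day1C, day7C or day7CL, with no filter on low counts or with promoters only. *Tnfsf8* did not differ from Cd4 but was lower than in Cd8. *Tnfrsf4*, which encodes OX40, held too few counts to be tested, with 35.2 CPM in Tcell, 12.3 in Cd4 and 3.01 in Cd8.

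Of the CD8 lineage list, 5 of 6 genes were tested, and all 5 counted as lower than in Cd8, beside 10.6% of all tested genes. Of these, *Cd8a*, *Cd8b1* and *Eomes* passed the filter on low counts only with the Cd8 libraries, where they are high, so that their count is a description of the label and supports nothing. *Cd8a* ranged from 0 to 54.3 CPM in Tcell with 6 libraries at 0, from 0 to 31.1 in Cd4 and from 61.8 to 126.6 in Cd8, so that every Tcell library lay below every Cd8 library. *Cd8b1* averaged 35.8 CPM in Tcell, 43.4 in Cd4 and 137 in Cd8. *Eomes* and *Runx3*, factors of the cytotoxic program, averaged 21.04 and 185 CPM in Tcell, close to 19.6 and 168 in Cd4 and under 80.4 and 261 in Cd8. Against Cd4, *Crtam* was lower (44.4 and 73.5 CPM) and no member was higher, in the fit of all 4 clusters. With only Tcell and Cd4 in the fit, *Crtam* held too few counts to be tested, and of the 1 member tested 0 were lower. *Gzmk*, which encodes a granzyme, was not tested (37.3, 20.9 and 30.7 CPM).

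The regulatory T cell list stood out in its level. Its 10 genes summed to 1745 ± 161 CPM in Tcell (SD, n = 20), to 941 ± 112 in Cd4, to 888 ± 101 in Cd8 and to 463 ± 46.6 in Bcell. The lowest Tcell library held 1381 CPM and the highest library of another lymphocyte cluster 1245, so the ranges did not overlap, and Tcell was higher in 20 of 20 mice in each comparison. Of the 9 genes tested, 9 were higher than in Cd4 (median 0.69 on the log2 scale) and 9 were higher than in Cd8 (median 1.05), beside 9.8% and 9.27% of all tested genes. Against Bcell, 8 were higher, beside 24% of all tested genes, and *Lrrc32* did not pass (median 2.50). *Lrrc32* counted as lower than in Bcell without nuclei of shared barcodes, without day7CL, with no filter on low counts and with promoters only. Without the 2 lymphocyte-poor mice, 8 of 8 tested genes were higher in both comparisons with T clusters, and without nuclei of shared barcodes 7 of 8 were higher than in Cd4 and 8 of 8 higher than in Cd8. With only the 2 clusters compared in the fit, 7 genes were tested and 7 were higher in each of these comparisons. With all 4 clusters, *Itgb8* passed the filter on low counts only with the Tcell libraries and *Lrrc32* only with the Bcell libraries. With promoters only, 3 of 5 were higher in each of these comparisons, and with thinned nuclei 4 of 5. With no filter on low counts, 7 of 9 were higher than in Cd4 and 8 of 9 than in Cd8, and without the day0RT mice 7 of 9 were higher than in Cd4. The numbers of genes tested and called over all genes change with the setting. The shares of all tested genes above therefore do not apply to the counts under other settings.

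**Figure D1:**
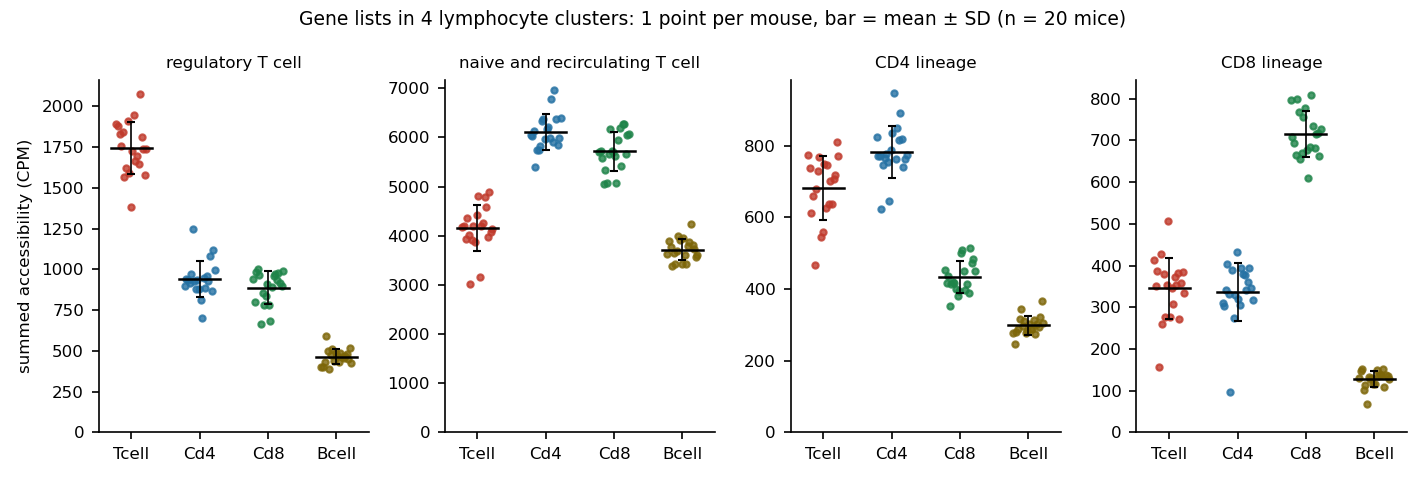
Summed accessibility (CPM, y axis from 0) of gene lists in the Tcell, Cd4, Cd8 and Bcell clusters, with 1 point per mouse and the bar at the mean with its SD (n = 20 mice). The regulatory T cell list is higher in every Tcell library (1381 to 2078) than in any library of the other clusters, and the naive list is lower in every Tcell library (3027 to 4885) than in any Cd4 or Cd8 library.

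*Ikzf2* (chr1:69531214-69687245), which encodes Helios, a zinc finger factor of regulatory T cells, ranged from 52.2 to 452.6 CPM in Tcell with a median of 316. It ranged from 25.6 to 126.5 in Cd4, from 100.9 to 194.3 in Cd8 and from 3.53 to 45.8 in Bcell. The lowest Tcell library was mouse 3 of day1CL, with 17 nuclei, and the next lowest Tcell library held 234.9 CPM, above every library of the other clusters. The log2 difference was 2.10 ± 0.10 against Cd4 and 1.08 ± 0.08 against Cd8, with Tcell higher in 19 of 20 mice in both comparisons.

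*Itgb8*, an integrin chain that takes part in activating TGF-β, had log2 differences of 2.66 ± 0.24 against Cd4 and 2.96 ± 0.23 against Cd8, in a test that it entered through Tcell. It ranged from 17.5 to 135.3 CPM in Tcell with a median of 73.7, against 0 to 61.2 in Cd4 and 0 to 30.7 in Cd8, and was higher in 20 of 20 mice. *Ctla4* (chr1:60887000-60915832), the inhibitory receptor that competes with CD28, ranged from 85.3 to 306.2 CPM in Tcell, from 48.7 to 287.4 in Cd4 and from 23.5 to 87.1 in Cd8. The Cd4 library at 287.4 was that of mouse 3 of day1CL, with 3 counts, and the next highest held 115.4 CPM. The log2 differences of *Ctla4* were 1.37 ± 0.11 and 2.16 ± 0.12.

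*Il2ra* (chr2:11642807-11693193), the high-affinity chain of the interleukin 2 receptor, had 242.7 to 590.6 CPM in Tcell with a median of 312.8. Cd4 ranged from 122.3 to 574.7 with a median of 214.1, and Cd8 from 80.9 to 222.6, so that Tcell lay above all Cd8 libraries but overlapped with Cd4. The highest Cd4 library was that of mouse 3 of day1CL, with 6 counts, and the next highest held 299.1 CPM. *Lrrc32*, which encodes GARP, the anchor of latent TGF-β on regulatory T cells, averaged 58.1 CPM in Tcell, 15.4 in Cd4 and 20.96 in Cd8, but 73.1 in Bcell. *Nrp1*, *Tnfrsf9* and *Ikzf4* averaged 254, 222 and 82.1 CPM in Tcell, against 161, 135 and 58.6 in Cd4. *Tnfrsf18*, which encodes GITR, was not tested and averaged 48.8 CPM in Tcell, 35.7 in Cd4 and 32.6 in Cd8.

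*Foxp3* (chrX:7573644-7595245), the factor that defines the lineage, differed least of the list against Cd4. It had 68.1 to 208.7 CPM in Tcell with a median of 169, 70.9 to 191.6 in Cd4 with a median of 129.1, 0 to 131.1 in Cd8 and 49.7 to 91.5 in Bcell. The Tcell and Cd4 ranges overlapped almost entirely, and Tcell was higher in 15 of 20 mice, with a log2 difference of 0.31 ± 0.10 against Cd4 and 0.63 ± 0.10 against Cd8. Its promoter lies beside the start of *Ppp1r3f*, and the peak over both starts (chrX:7573768-7574994) averaged 70.8 CPM of peak counts in Tcell, 78.5 in Cd4, 53.5 in Cd8 and 52.6 in Bcell. Reads there cannot be assigned to 1 of the 2 genes, and the peak did not pass against Cd4 or Cd8. With promoter peaks alone, the log2 difference of *Foxp3* against Cd4 was 0.01 and did not pass, and without the day0RT mice it was 0.23 and did not pass.

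**Figure D2:**
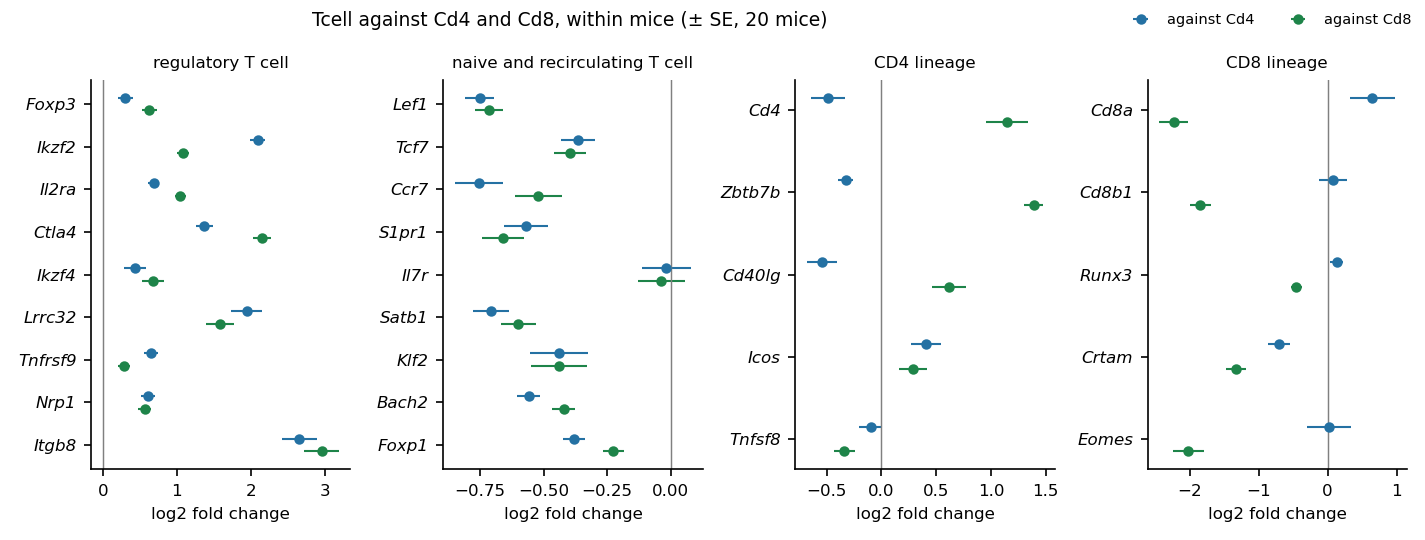
Log2 difference of Tcell against Cd4 and against Cd8 for each tested gene of the regulatory, naive, CD4 lineage and CD8 lineage lists (x axis, points with SE, 20 mice). The regulatory genes lie right of 0 in both comparisons, the naive genes lie left of 0 except Il7r, which lies at about 0 (9 of the 10 naive genes are drawn), and the CD8 lineage genes lie left of 0 against Cd8.

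The naive and recirculating list showed the opposite order. Its 10 genes summed to 4151 ± 469 CPM in Tcell, 6111 ± 366 in Cd4 and 5716 ± 389 in Cd8, and the Tcell range of 3027 to 4885 did not overlap with that of Cd4 (from 5389) or Cd8 (from 5047). Of the 10 genes, 9 were lower than in Cd4 (median -0.56 on the log2 scale) and 9 lower than in Cd8 (median -0.48), beside 8.63% and 10.6% of all tested genes, and none was higher. *Il7r*, the receptor for the survival cytokine interleukin 7, was the member that did not differ in either comparison, with 165, 155 and 165 CPM. The counts of 9 were the same without the 2 lymphocyte-poor mice and without nuclei of shared barcodes. With promoters only, 8 of 9 were lower than in Cd4 and 6 of 9 lower than in Cd8, and with thinned nuclei 8 of 10 in each. As for the regulatory list, the shares of all tested genes do not apply to counts under other settings. Against Bcell the list was mixed, with 5 genes higher and 4 lower, beside 24% and 24.6% of all tested genes, and with promoters only 3 of 9 were higher and 5 lower.

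*Lef1*, a partner of β-catenin that is high in naive cells, had 313.1 to 824.1 CPM in Tcell with a median of 477.7, against 672.7 to 971 in Cd4 and 668.6 to 960.5 in Cd8, and 1 Tcell library overlapped with both. Its log2 difference was -0.75 against Cd4 and -0.72 against Cd8, and it was lower in 20 of 20 mice in both. *Ccr7* and *S1pr1*, receptors that guide cells into and out of lymph nodes, averaged 131 and 172 CPM in Tcell and 225 and 246 in Cd4. *Satb1*, *Tcf7*, *Klf2*, *Bach2* and *Foxp1*, transcription factors of quiescent T cells, were lower against both clusters, with *Satb1* the most (284, 482 and 430 CPM).

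Genes of other T cell states were mostly thin in counts. Of the type 17 and γδ list, 9 of 13 genes had a peak and 3 were tested, all 3 higher than in Cd4 and than in Cd8, beside 9.8% and 9.27% of all tested genes. Of these, *Ccr6* passed the filter on low counts only with the Bcell libraries. Summed over the list, Tcell was higher than Cd4 in 20 of 20 mice and than Cd8 in 19 of 20, with overlapping ranges. *Zbtb16*, which encodes PLZF, a factor of innate-like T cells, averaged 126 ± 49.4 CPM in Tcell, 50.9 in Cd4 and 67.5 in Cd8. *Maf*, a factor of interleukin 10 and interleukin 17 producers, averaged 112, 54.1 and 54.6, and the chemokine receptor *Ccr6* 62.8, 20.8 and 15.5, below its Bcell level of 184. Among the untested members, *Il23r*, the receptor that sustains type 17 cells, averaged 71.3 CPM in Tcell and 20.0 in Cd4. *Trgc1*, a constant region of the γ chain, held 18 counts over all Tcell libraries (9.68 CPM, against 0.307 in Cd4 and 0.599 in Cd8), while *Trdc*, that of the δ chain, averaged 8.73, 9.09 and 10.8 CPM.

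The type 2 list had 2 tested genes. Its summed level was higher than in Cd4 in 20 of 20 mice and than in Cd8 in 20 of 20, with overlapping ranges. *Rora*, a factor of innate lymphoid and of tissue regulatory T cells, ranged from 324.8 to 887.1 CPM in Tcell with a median of 442.1 and was higher than in Cd4 in 20 of 20 mice (470 and 298 CPM on average). *Gata3*, the type 2 master factor, was higher than in Cd8 (254 and 218 CPM) and did not pass against Cd4 (228 CPM). Untested members with few counts included *Il9r* (43.0, 10.0 and 6.54 CPM), *Il17rb* (39.0, 21.9 and 8.47) and *Il4* (38.0, 14.4 and 5.49).

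NK and cytotoxic genes were split. *Il2rb*, the shared chain of the interleukin 2 and 15 receptors, averaged 119 ± 35.8 CPM in Tcell and 23.4 ± 19.2 in Cd4, higher in 20 of 20 mice, and did not differ from Cd8 (98.2 CPM). *Prf1*, which encodes perforin, and *Klrd1*, an NK receptor, averaged 31.4 and 18.4 CPM in Tcell, 56.3 and 27.0 in Cd4 and 90.6 and 79.8 in Cd8, and counted as lower than in both. *Klrd1* passed the filter on low counts through its 20 Cd8 libraries, with 0 Tcell and 1 Cd4 library over the level the filter asks for, so that nothing is read from its count. *Gzmb* and *Ccl5*, effector genes of cytotoxic cells, held 5 and 3 counts over all Tcell libraries.

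For the lists that follow, the shares over all tested genes were 9.8% higher and 8.63% lower against Cd4 and 9.27% higher and 10.6% lower against Cd8. Of the 10 tissue residency genes, 5 were higher and none lower than in Cd4 (median 0.33), while against Cd8 3 were higher and 3 lower (median 0.04). *Itgae*, the integrin chain CD103, averaged 179, 102 and 233 CPM in Tcell, Cd4 and Cd8, and the chemokine receptor *Cxcr6* 49.6, 18.9 and 67.6, both between the 2 other clusters. *Rgs1*, a brake on chemokine signalling, averaged 82.7, 35.8 and 51.2 CPM and passed the filter on low counts only with the Tcell libraries. *Cxcr6* passed only with the Cd8 libraries, and *Zfp683* needed both Tcell and Cd8, so that the counts of this list include members that entered through a cluster where they are high. *Cd44* and *Id2* were higher than in both clusters.

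Of the 9 activation and checkpoint genes tested, 6 were higher than in Cd4 (median 0.42) and 5 higher than in Cd8 (median 0.34), and *Nr4a3* was the 1 member lower in each. *Tigit*, an inhibitory receptor that also passed the filter only with the Tcell libraries, averaged 78.6, 31.5 and 49.7 CPM, and *Nr4a1*, an early gene of receptor signalling, 159, 112 and 107. *Nr4a2* passed the filter only with the Cd8 libraries. The counts of this list thus include members that entered through a cluster where they are high. *Irf4* and *Batf*, partner factors of effector and tissue regulatory T cells, averaged 185 and 134 CPM in Tcell, 144 and 89.5 in Cd4 and 110 and 80.5 in Cd8. *Pdcd1* and *Havcr2*, which encode PD-1 and TIM-3, were not tested (37.0 and 24.4 CPM in Tcell, 16.3 and 4.02 in Cd4).

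Of 9 glucocorticoid response genes, 3 were higher and 2 lower than in Cd4, and 5 higher and 3 lower than in Cd8. *Dusp1*, a phosphatase of MAP kinases, averaged 160 ± 48.4 CPM in Tcell, 72.5 in Cd4 and 39.0 in Cd8, and *Sgk1*, a kinase, went the other way with 302, 449 and 520. Of 8 cAMP and adrenergic genes, 1 was higher (*Crem*) and 4 lower than in Cd4, among them *Pde3b*, a phosphodiesterase that breaks down cAMP (214 and 297 CPM), and against Cd8 1 was higher and 5 lower. *Adrb3*, the receptor of CL, held 8 counts over all Tcell libraries and was not tested. Of 8 interferon response genes, 1 was lower than in Cd4 (*Ddx58*) and 2 than in Cd8. In the immature list, *Dntt* was the 1 gene tested and was lower than in both (61.3, 118 and 82.2 CPM), and *Rag1* and *Ptcra* had no peak.

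Markers of other cell types were given the same count. The 12 B cell genes summed to 505 ± 126 CPM in Tcell, 547 ± 174 in Cd4 and 527 ± 123 in Cd8, against 3750 ± 184 in Bcell, and *Ebf1* was the most abundant (132 CPM in Tcell, 1111 in Bcell). *Blk*, a kinase also known in some γδ T cells, averaged 76.2 CPM in Tcell and 22.0 in Cd4. Of the 12 genes 7 (58.3%), *Ighm* among them, passed the filter on low counts only through the Bcell libraries, so that no count of members higher or lower is given. The 12 myeloid genes summed to 238 CPM in Tcell, 383 in Cd4 and 305 in Cd8, with *Spi1* the most abundant, *Lyz2* at 2 counts, *C1qa* at 1 count and *Csf3r* at 0 over all Tcell libraries, where a count of 0 allows up to 3 counts. The 8 adipocyte genes summed to 273 CPM in Tcell, 268 in Cd4 and 235 in Cd8 (*Lipe* highest, and *Adipoq*, which encodes adiponectin, lower than in both), and the 8 stromal and endothelial genes to 455, 523 and 470 (*Pecam1* highest).

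Genes were also ranked with no list. Against Cd4 the 6 largest differences that met the rule were *Ikzf2*, *Vmp1*, *Col15a1*, *Atxn1*, *Coro2a* and *Gfod1*, with log2 differences from 2.10 to 1.05. On the lower side were *Slc4a4*, *Tspan9*, *Als2cl*, *Irgc1*, *Atp1b1* and *Gramd3*, from -1.93 to -0.97. *Slc4a4*, a bicarbonate transporter, averaged 65.5 ± 32.1 CPM in Tcell and 252 ± 52.7 in Cd4. Against Cd8 the list led with *Mdfic* (333 ± 120 and 102 ± 35.4 CPM), *Zbtb7b*, *Fam129a*, *Galm*, *Sh3rf1* and *Samsn1*, and on the lower side with *Cd8b1*, *Bend4*, *Haao*, *Tspan9*, *Peli2* and *Slc6a19*. Against Bcell it led with *Bcl11b*, *Cd226*, *Prkch*, *St8sia1*, *Ikzf2* and *Stk39*, and on the lower side with *Chil4*, *Fcrla*, *Napsa*, *Il5ra*, *Ms4a1* and *Btnl1*. These last 6 had 0 libraries of the T clusters over the level the filter asks for and were tested only through Bcell.

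The direction was the same against all 3 clusters for 277 genes on the higher side (3.03% of those tested) and for 130 on the lower side (1.42%). The comparisons share the Tcell libraries, and these counts only say which genes were named. Of the 277, 56 (20.2%) passed the filter on low counts only with the Tcell libraries, against 5.58% of all tested genes, and among the first 8 named below these are *Itgb8*, *F13a1*, *Rbm45*, *Sh3bgrl2* and *Src*. Of the 130, 5 (3.85%) passed only with the Bcell libraries, against 5.72% of all. Ranked by the smallest of the 3 differences, the first 8 higher genes were *Itgb8*, *Plcb4*, *F13a1*, *Rbm45*, *Ctla4*, *Sh3bgrl2*, *Fam129a* and *Src*. *Plcb4*, a phospholipase C, averaged 221 ± 76.7 CPM in Tcell, 47.9 in Cd4, 56.5 in Cd8 and 38.7 in Bcell, and was higher in 20 of 20 mice against each. *Fam129a* averaged 212, 44.9, 88.2 and 50.0 CPM, and *F13a1*, a chain of clotting factor XIII, 97.0, 30.7, 27.5 and 8.95. Of the first 8 lower genes, 6 are named here: *Pax7*, *H2-DMb1*, *Il5ra*, *Irgc1*, *Flt3* and *March1*. These 6 were most accessible in Bcell, and levels in the T clusters were often low, as for *Il5ra* at 7.46, 18.5 and 17.8 CPM in Tcell, Cd4 and Cd8. *Il5ra* and *H2-DMb1* had 0 libraries of the 3 T clusters over the level the filter asks for and were tested only through Bcell, and *Pax7* needed both Cd4 and Bcell.

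At the level of single peaks, 9572 peaks held enough counts to be tested. Against Cd4, 12.6% differed, with 386 higher (4.03%) and 817 lower (8.54%), and against Cd8 15.1%, with 322 higher (3.36%) and 1119 lower (11.7%). Against Bcell 44.2% differed, with 2207 higher (23.1%) and 2028 lower (21.2%). With each nucleus thinned to 500 counts, 9 peaks differed from Cd4, 18 from Cd8 and 140 from Bcell. In the same direction against all 3 clusters, 52 peaks were higher (0.543%) and 131 lower (1.37%). The filter on low counts asked for 42.99 CPM of peak counts in at least 17 of the 80 libraries. Of the 52, 30 (57.7%) met it only with the Tcell libraries, against 10.4% of all tested peaks, and of the 131, 38 (29%) met it only with the Bcell libraries, against 14% of all. Both sets are therefore partly chosen by level, and their positions and motif shares below are descriptions. Of all tested peaks 56.7% had their centre within 1000 bases of a gene start, against 30.8% of the 52 higher and 16.0% of the 131 lower peaks.

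The 6 peaks that led the higher side all met the filter only with the Tcell libraries, where they are high, so that their differences are descriptions. The central 300 bases of 5 of them are printed below to show the DNA behind these differences, from the plus strand of GRCm38.p6 (mm10). Capitals mark matches, on either strand, to the 10 short motifs that were searched, of which NFAT (TGGAAA) and E-box (CAGCTG) were found. The E-box letters read the same on both strands.

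chr9:107313048-107313347, 17 kb past the start of Cish: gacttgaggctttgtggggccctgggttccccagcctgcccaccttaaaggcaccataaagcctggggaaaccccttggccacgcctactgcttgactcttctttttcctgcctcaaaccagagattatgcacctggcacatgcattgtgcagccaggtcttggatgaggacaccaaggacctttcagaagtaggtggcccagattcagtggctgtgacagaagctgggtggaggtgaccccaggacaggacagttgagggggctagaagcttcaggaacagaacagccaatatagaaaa
chr2:11642112-11642411, before the start of Il2ra: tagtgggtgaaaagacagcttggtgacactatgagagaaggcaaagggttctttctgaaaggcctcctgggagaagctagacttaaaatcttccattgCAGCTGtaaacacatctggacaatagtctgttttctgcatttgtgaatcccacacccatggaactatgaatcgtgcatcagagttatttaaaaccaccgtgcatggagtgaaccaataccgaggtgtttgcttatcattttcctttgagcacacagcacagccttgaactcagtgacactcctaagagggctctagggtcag
chr19:23135232-23135531, before the start of Klf9: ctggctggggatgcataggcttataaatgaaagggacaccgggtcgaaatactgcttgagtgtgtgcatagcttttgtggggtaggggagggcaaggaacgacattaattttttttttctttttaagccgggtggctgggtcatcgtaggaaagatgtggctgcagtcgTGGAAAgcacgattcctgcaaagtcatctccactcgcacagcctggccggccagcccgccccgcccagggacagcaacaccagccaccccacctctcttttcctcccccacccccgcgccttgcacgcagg
chr13:43177249-43177548, before the start of Tbc1d7: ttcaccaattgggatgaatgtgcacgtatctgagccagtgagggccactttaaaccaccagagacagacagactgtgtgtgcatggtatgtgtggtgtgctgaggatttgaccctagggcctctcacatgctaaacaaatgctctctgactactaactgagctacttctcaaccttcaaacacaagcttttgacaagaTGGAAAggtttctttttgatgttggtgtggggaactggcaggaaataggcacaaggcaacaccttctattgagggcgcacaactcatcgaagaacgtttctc
chr17:80175039-80175338, intron of Galm: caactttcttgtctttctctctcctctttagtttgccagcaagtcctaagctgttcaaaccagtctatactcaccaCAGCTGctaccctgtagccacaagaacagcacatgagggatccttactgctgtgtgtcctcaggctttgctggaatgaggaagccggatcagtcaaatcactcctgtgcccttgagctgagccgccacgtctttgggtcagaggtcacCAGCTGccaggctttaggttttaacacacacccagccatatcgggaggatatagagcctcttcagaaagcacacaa

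The peak at chr9:107312736-107313661 lies between genes, with the start of *Cish*, which encodes an inhibitor of cytokine signalling, as the nearest start at 17172 bases. Its printed window holds none of the 10 motifs. Its accessibility ranged from 36.7 to 153.2 CPM of peak counts in Tcell with a median of 73.7, from 0 to 41.5 in Cd4, from 3.54 to 61.2 in Cd8 and from 0 to 17.6 in Bcell. The Tcell libraries lay above all Bcell libraries and overlapped with the upper end of Cd4 and Cd8. The log2 difference was 1.37 ± 0.18 against Cd4 (higher in 20 of 20 mice) and 1.55 ± 0.17 against Cd8. A second peak near the same gene, chr9:107296107-107297213, overlaps an exon of it and averaged 61.3 ± 25.0 CPM in Tcell, 31.0 in Cd4, 29.5 in Cd8 and 21.6 in Bcell.

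The peak before *Il2ra* (chr2:11641397-11643128), whose centre lies 545 bases upstream and whose edge reaches the first exon, ranged from 32.1 to 111.2 CPM in Tcell with a median of 68.4. Its median was 26.1 in Cd4, 21.3 in Cd8 and 17.7 in Bcell. The highest Cd4 library, at 165.1 CPM, was that of mouse 3 of day1CL, with 16 nuclei and 2 counts in this peak, and the next highest Cd4 library held 54.4 CPM. The maximum was 42.9 in Cd8 and 35.1 in Bcell, so that the upper ends of all 3 clusters overlapped with the lower end of Tcell. The log2 differences were 1.29 ± 0.17, 1.51 ± 0.17 and 1.98 ± 0.16, and the window holds 1 E-box at position 99 counted from its left end. Inside the gene, a peak at chr2:11657502-11658087 averaged 53.6 CPM in Tcell, 43.3 in Cd4, 26.8 in Cd8 and 7.26 in Bcell, and did not pass against Cd4.

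The remaining named peaks lie at *Klf9*, *Tbc1d7* and *Galm*. The peak upstream of *Klf9*, a glucocorticoid-induced factor, at chr19:23133948-23136817 averaged 56.8 ± 30.7 CPM in Tcell, 19.6 in Cd4, 23.0 in Cd8 and 30.3 in Bcell, and its window holds 1 NFAT match at position 170. This window overlaps an exon of the long noncoding RNA gene *2410080I02Rik*. The peak at chr13:43177024-43177774, upstream of *Tbc1d7*, averaged 51.9, 28.2, 24.4 and 2.32 CPM, with 1 NFAT match at position 199. The peak in an intron of *Galm* at chr17:80174632-80175747 averaged 55.4, 29.5, 30.1 and 10.4 CPM, with E-boxes at positions 77 and 225.

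**Figure D3:**
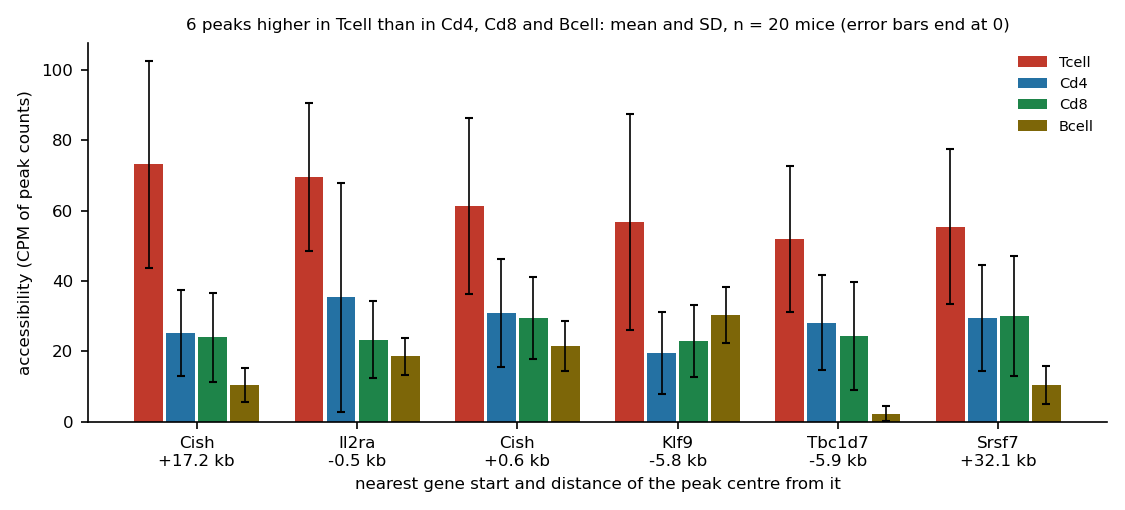
Mean accessibility (CPM of peak counts, y axis from 0) with SD of the 6 leading peaks in the 4 lymphocyte clusters (n = 20 mice), labelled by the nearest gene start and the distance of the peak's centre from it. In each peak Tcell is highest, from 51.9 to 73.2 CPM, and Cd4 and Cd8 lie between 19.6 and 35.4, and all 6 could be tested only through the Tcell libraries.

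Of 8 tested peaks in regulatory genes, 4 were higher than in Cd4 (4.03% of all tested peaks), 5 higher than in Cd8 (3.36% of all) and none lower, and 4 of the 8 passed the filter on low counts only with the Tcell libraries. The promoter peak of *Ikzf2* (chr1:69686897-69688131) averaged 62.2 ± 24.7 CPM in Tcell, 31.7 in Cd4, 39.8 in Cd8 and 3.02 in Bcell. Against Cd4 and Cd8 this difference was smaller than over the whole gene, but not against Bcell. Of 42 tested peaks in naive genes, 27 were lower and 1 higher than in Cd4, and 30 were lower and 1 higher than in Cd8, where 8.54% and 11.7% of all tested peaks were lower. Of the 42, 12 met the filter only with the Cd4 libraries and 12 only with the Cd8 libraries, and a peak that needed both is in both counts. The promoter peak of *Cd3e* did not differ between the T clusters (44.8, 58.3 and 59.9 CPM, and 2.04 in Bcell).

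The 6 leading peaks on the lower side held 41.65 to 72.55 counts per library in Bcell and 0.05 to 1.0 in Tcell, and all 6 met the filter on low counts only with the Bcell libraries. The peak in an intron of *Spns2*, a transporter of sphingosine 1-phosphate, held 1 count in all Tcell libraries together and averaged 6.67 CPM in Cd4, 3.85 in Cd8 and 53.7 in Bcell. The other 5 averaged 0.568 to 7.79 CPM in Tcell and 57.2 to 91.6 in Bcell.

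Motif matches are given as a share of windows of 300 bases at the peak centres, on both strands, beside the share over all 9572 tested peaks. NFAT (TGGAAA) was found in 28.8% of the 52 higher peaks, 22.1% of the 131 lower peaks and 15.9% of all. The GATA factor letters AGATAAG stood in 7.69%, 3.05% and 2.04%, which for the higher peaks is 4 of 52. ETS (AGGAAGT) was found in 15.4%, 26.7% and 14.8%, and RUNX (TGTGGTT) in 9.62%, 16.0% and 8.47%. ETS and NFAT share the letters GGAA, though neither motif contains the other. Fewer of the higher and lower peaks lie at gene starts than of all tested peaks. Over peaks more than 1000 bases from a start (36 higher, 110 lower and 4147 in all), the shares were 30.6%, 23.6% and 21.9% for NFAT and 8.33%, 3.64% and 3.69% for GATA, where 3 of the 36 held a match. They were 22.2%, 30.9% and 24.5% for ETS and 13.9%, 18.2% and 15.7% for RUNX. The E-box letters CAGCTG stood in 21.2% of the higher peaks, 18.3% of the lower peaks and 17.1% of all, and over 1000 bases from a start in 25%, 18.2% and 20.8%. The AP-1 and BATF letters TGANTCA stood in 7.69%, 5.34% and 5.40%, and over 1000 bases from a start in 8.33%, 4.55% and 8.46%. They stood in 14.0% of the 386 peaks higher than in Cd4 and 6.12% of the 817 lower, and in 9.94% of the 322 higher than in Cd8 and 7.24% of the 1119 lower. Over 1000 bases from a start these 4 shares were 18.6%, 6.32%, 12.5% and 7.54%. The sets from single comparisons, here and below, are also partly chosen by level. Of the 386 and the 322, 29.8% and 28.3% met the filter only with the Tcell libraries, against 10.4% of all tested peaks. Of the 817, 23.9% met it only with the Cd4 libraries (11% of all), and of the 1119, 30.2% only with the Cd8 libraries (10.4% of all).

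For TCF/LEF, the factors that *Tcf7* and *Lef1* encode, the letters CTTTGAT stood in 5.77% of the higher peaks, 3.05% of the lower and 3.26% of all. Over 1000 bases from a start these shares were 5.56%, 3.64% and 5.47%. In the larger sets from single comparisons the letters stood in 3.89% of the 386 peaks higher than in Cd4 and 7.34% of the 817 lower. They stood in 4.35% of the 322 higher than in Cd8 and 7.60% of the 1119 lower. Over 1000 bases from a start these 4 shares were 4.45%, 8.33%, 6% and 8.59%. For T-box factors such as the one encoded by *Eomes*, the letters AGGTGTG stood in 5.77%, 8.40% and 4.91%, and over 1000 bases from a start in 8.33%, 8.18% and 7.60%. The KLF letters GGGCGTG stood in 11.5%, 6.11% and 10.5% of these windows, and over 1000 bases from a start in 8.33%, 6.36% and 5.93%. The ROR letters TAGGTCA stood in 0%, 2.29% and 1.66% of these windows, and over 1000 bases from a start in 0%, 2.73% and 2.39%. The 3 sets of windows differ in base composition, with a mean GC content of 53.9% in the higher, 51.6% in the lower and 60.005% in all peaks, and its part in these shares was not tested.

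Single nuclei were compared after each was thinned to 500 counts, which kept 1354 of the 1610 Tcell nuclei (84.1%). At this depth 51.6% ± 9.1 of Tcell nuclei (SD, n = 20 mice) had a count in at least 1 regulatory gene. The share was 33.7% in Cd4, 32.0% in Cd8 and 17.9% in Bcell. Shares of thinned nuclei are means over 20 mice in Tcell, 19 in Cd4, 20 in Cd8 and 21 in Bcell, so that the sets of mice differ. Without thinning the shares were 75.2%, 54.2%, 54.8% and 35.2%. At least 3 such counts were found in 5.69% of Tcell nuclei, 0.899% of Cd4, 0.88% of Cd8 and 0.135% of Bcell nuclei, pooled over mice.

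Counts of 1 gene per nucleus were sparse. *Ikzf2* had a count in 13.6% ± 4.7 of thinned Tcell nuclei, 3.17% of Cd4, 6.32% of Cd8 and 0.796% of Bcell nuclei, and *Foxp3* in 7.12%, 5.28%, 4.02% and 2.85%. *Cd4* had a count in 2.25% of Tcell, 3.49% of Cd4 and 1.36% of Cd8 nuclei, and *Cd8a* in 0.44%, 0.555% and 3.94%. Most nuclei of every cluster therefore held no count of the coreceptor genes, and a single nucleus could not be placed by them. The naive list had a count in 79.6% of Tcell nuclei, 92.8% of Cd4 and 91.3% of Cd8 nuclei. The pan T cell list was also lower, with 73.6%, 78.1% and 78.8%. A higher share in Tcell was not particular to the regulatory list. For the type 17 and γδ list the shares were 18.1%, 7.83% and 8.93%, with 13.1% in Bcell. For the type 2 list they were 31.1%, 22.0% and 20.8%. These shares do not tell whether the Tcell cluster is 1 population or a mixture.

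The share of nuclei that were Tcell was compared over mice. At day 0 it was 6.67%, 7.75% and 7.03% of all nuclei in the 3 mice (7.15% ± 0.551), and over the 18 treated mice it ranged from 0.644% to 7.02% with a median of 4.76% (4.52% ± 1.82). The highest treated mouse, mouse 1 of day1C, lay within the day 0 range, and the other 17 lay below it. The difference of -2.63 points had p = 0.003008 in a two-sided exact permutation test and an adjusted p of 0.01805 over 6 tests of shares. Without the 3 lymphocyte-poor mice it was -1.96 points (exact permutation p = 0.004902).

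As a share of the nuclei in the 4 lymphocyte clusters the difference did not pass, with 7.12% ± 2.38 in treated mice and 10.0% ± 1.32 at day 0 (exact permutation p = 0.0782, adjusted 0.2346). As a share of the 3 T clusters it was 17.8% ± 6.40 and 20.4% ± 2.47 (exact permutation p = 0.4316). Without the 3 lymphocyte-poor mice the p of both shares fell, and their omission was chosen after the data were seen. With all mice the difference was -2.909 points of lymphocytes, which hardly moved without them. Of the 3 T clusters it was -2.597 points, which did move. Without these mice the treated mean was 7.16% ± 1.73 of lymphocytes, a difference of -2.87 points (exact permutation p = 0.03676, adjusted 0.1078), and 15.6% ± 3.10 of the 3 T clusters, a difference of -4.75 points (exact permutation p = 0.05392, adjusted 0.1078). The share of lymphocytes also had an exact permutation p of 0.02632 without mouse 3 of day1CL alone and 0.04035 without mouse 1 of day1C. The difference between cold and CL mice did not pass, with 4.84% ± 1.71 and 4.19% ± 1.96 of all nuclei (exact permutation p = 0.461, 9 mice each). By group the mean was 6.48% at day1C, 3.74% at day3C, 4.31% at day7C, 4.52% at day1CL, 2.84% at day3CL and 5.21% at day7CL. With 3 mice against 3, a two-sided exact permutation test cannot give a p under 0.10, so that single groups were not tested against day 0. In such shares, fewer Tcell nuclei and more nuclei of another kind cannot be told apart.

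**Figure D4:**
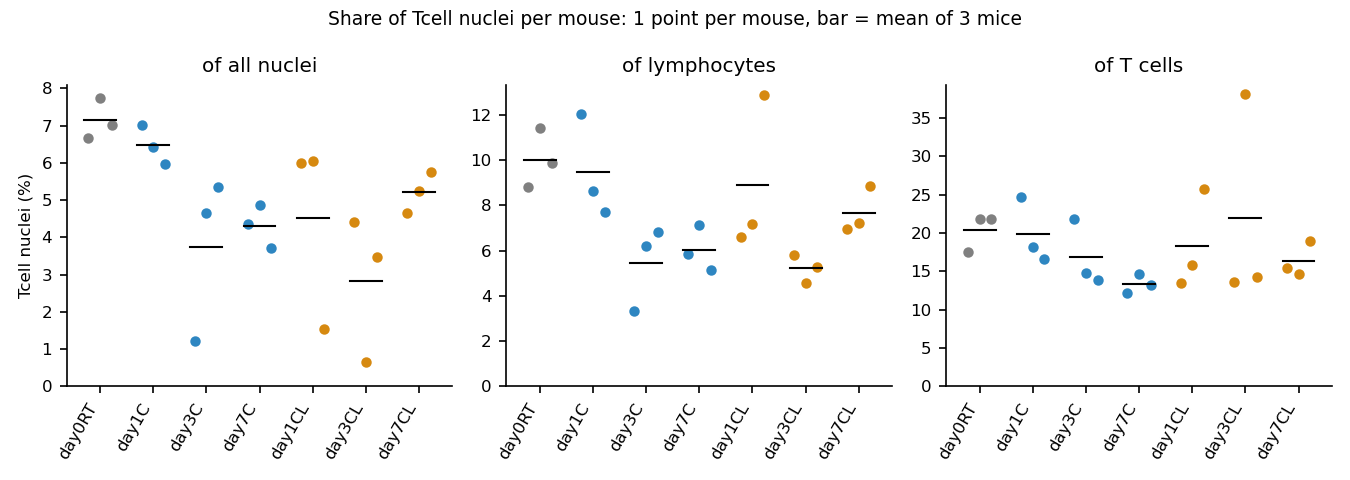
Share of Tcell nuclei (%, y axis from 0) per mouse in the 7 groups, with 1 point per mouse and the bar at the mean of 3 mice, for each denominator. Of all nuclei, the day 0 mice lie at 6.67% to 7.75% and the treated mice at 0.644% to 7.02%.

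Within the Tcell cluster, the groups were compared over 5817 genes in the 20 libraries. The groups played no part in the rule that chose the nuclei, but the cluster label was drawn from the same counts, so that each comparison holds for nuclei that kept this label. Few genes passed. Against day0RT, no gene passed at day1C, day7C or day3CL, 1 passed at day3C (0.0172%), 3 at day1CL (0.0516%) and 3 at day7CL (0.0516%). All of them rose, and over all treated mice against day 0 1 gene passed (0.0172%). No gene separated cold from CL. Without nuclei of shared barcodes, no gene passed in any of the 8 comparisons. Without mouse 1 of day0RT none passed at day3C, at day1CL or over all treated mice. For *Sfi1*, *Mdfic*, *Bcl2* and *Shb* the single mice on which the calls depended are given below. At an unadjusted p under 0.05 edgeR listed 315 genes at day1C, 368 at day7C, 255 at day3CL and 317 for cold against CL. DESeq2 also listed 0 genes in these 4 comparisons. Single peaks were tested for treated against day 0 and for cold against CL, and 0 of 4025 passed in both, with 218 and 180 at an unadjusted p under 0.05.

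*Sfi1*, a centrosomal gene, was the gene that passed most often. It had 903, 1270 and 1009 CPM in the 3 day 0 mice, 1649, 1852 and 1618 at day1CL, and 1491, 1590.1 and 1919 at day7CL, so that all 6 of these CL mice lay above the day 0 mice. At day3CL it had 944 and 918 CPM, within the day 0 range. In the cold it had 1343, 1334 and 1435 CPM at day1C, 1459, 1486 and 1207 at day3C, and 1593, 1664 and 1274 at day7C, so that 8 of the 9 cold mice also lay above the day 0 mice. The log2 changes in the cold were 0.41 ± 0.12, 0.38 ± 0.12 and 0.50 ± 0.12 and did not pass (edgeR adjusted p = 0.565884, 0.736342 and 0.135). The log2 change was 0.75 ± 0.13 at day1CL (edgeR adjusted p = 7.6e-05), 0.66 ± 0.12 at day7CL (adjusted p = 0.000152) and 0.42 ± 0.09 over all treated mice (adjusted p = 0.024979). Without nuclei of shared barcodes the changes were 0.58, 0.63 and 0.36 with adjusted p of 0.660, 0.0802 and 0.404. Without mouse 1 of day0RT they were 0.64, 0.56 and 0.31 with adjusted p of 0.0549, 0.0575 and 0.691, and without mouse 2 of day1CL the change at day1CL was 0.65 (adjusted p = 0.326). Over all treated mice the gene lost its call without any 1 of 9 mice (1 or 3 of day0RT, 2 of day1CL, 1 or 3 of day3CL, 3 of day7CL, 2 of day3C, 1 or 2 of day7C), with adjusted p from 0.0540 to 0.691. In the other lymphocyte clusters the means at day 0, day1CL, day3CL and day7CL were 687, 1511, 700 and 1136 CPM in Bcell, 632, 1567, 850 and 1407 in Cd4 and 1008, 1859, 1137 and 1794 in Cd8. A difference between clusters in this change was not tested. Depth per nucleus varied between mice. The median Tcell nucleus held 1424.5, 769 and 1411 peak counts in the day 0 mice and 541, 864 and 778 at day1CL. It held 843 and 1517 at day3CL and 1795, 946 and 598 at day7CL. The part of depth in these changes was not tested.

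*Mdfic*, an inhibitor of MyoD family factors, had 214, 333 and 229 CPM at day 0 and 487, 468 and 678 at day1CL, with no overlap (log2 change 1.01 ± 0.22, adjusted p = 0.010119). In Bcell it had 210, 226 and 286 CPM at day 0 and 378, 373 and 298 at day1CL, also with no overlap. In Cd4 (means of 130 and 175 CPM) and Cd8 (90.2 and 105 CPM) the groups overlapped through mouse 3 of day1CL alone, with 1 count in each. *Bcl2*, which protects lymphocytes from death, had 484, 405 and 403 CPM at day 0 and 739.8, 638 and 634 at day7CL, with no overlap (0.69 ± 0.16, adjusted p = 0.025328). Its means at day 0 and day7CL were 533 and 616 CPM in Cd4, 719.5 and 752 in Cd8, and 575 and 664 in Bcell, and the mice overlapped in each. *Shb*, an adaptor of receptor signalling, had 39.9, 90.1 and 99.4 CPM at day 0 and 243, 195 and 169 at day3C (1.31 ± 0.29, adjusted p = 0.036284), on a mean of 12.95 counts per library. Its means at day 0 and day3C were 117 and 149.98 CPM in Cd4, 97.8 and 78.9 in Cd8, and 85.5 and 101 in Bcell. Whether these changes differed between clusters was not tested. Without nuclei of shared barcodes the adjusted p was 0.139 for *Mdfic*, 0.341 for *Bcl2* and 0.643 for *Shb*, with log2 changes of 1.01, 0.56 and 1.07. Without the lymphocyte-poor mice it was 0.0720, 0.0117 and 0.0544. With the replicate block *Shb* did not pass (adjusted p = 0.0957). With DESeq2 none of these 3 genes passed, and *Sfi1* passed at day1CL and day7CL but not over all treated mice. Single mice decided these calls: *Mdfic* did not pass without mouse 1 or 3 of day0RT or mouse 1 or 2 of day1CL (adjusted p from 0.110 to 0.434). *Bcl2* did not pass without mouse 2 or 3 of day0RT or mouse 1 or 3 of day7CL (0.0557 to 0.689), and *Shb* without mouse 1 of day0RT or any mouse of day3C (0.0673 to 0.872). *Gpc6* at day1CL (adjusted p = 0.03333) and *Ptprd* at day7CL (adjusted p = 0.01194) also passed, on means of 4.55 and 7.8 counts per library. Both fell outside the rule for naming by their low counts and are named after their values were seen. Neither passed without nuclei of shared barcodes, and *Gpc6* did not pass without mouse 1 of day0RT.

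No gene of the fixed lists passed in any comparison of groups. The regulatory list summed to 1891, 1882 and 1834 CPM in the day 0 mice and to 1381 to 2078 over the 17 treated libraries. The median log2 change of its 8 tested genes lay between -0.33 at day3CL and -0.15 at day7CL in the comparisons with day 0, beside medians near 0.00 over all genes. These comparisons share the 3 day 0 mice. *Foxp3* had 194.5, 171.1 and 193.8 CPM at day 0 and 68.1, 144.2 and 73.6 at day1C, without overlap, and did not pass (log2 change -1.06 ± 0.28, adjusted p = 0.556). At day3C it had 173.7, 178.6 and 169.2 CPM. *Ikzf2* had 354.2, 306.2 and 367.7 CPM at day 0 and 282.1, 372.6 and 279.6 at day1C.

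The remaining genes with the smallest p where none passed were *Ptprd* and *Nebl* at day1C, *Sfi1*, *Acsl3* and *Swap70* at day7C, and *Ulk4*, *Rccd1* and *Mef2c* at day3CL. For cold against CL they were *Mdfic*, *Abcc3* and *Orai1*, the pore of the calcium channel that T cells open on activation, with log2 differences of -0.55, 1.48 and 0.79 and an adjusted p of 0.377449 each.

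**Figure D5:**
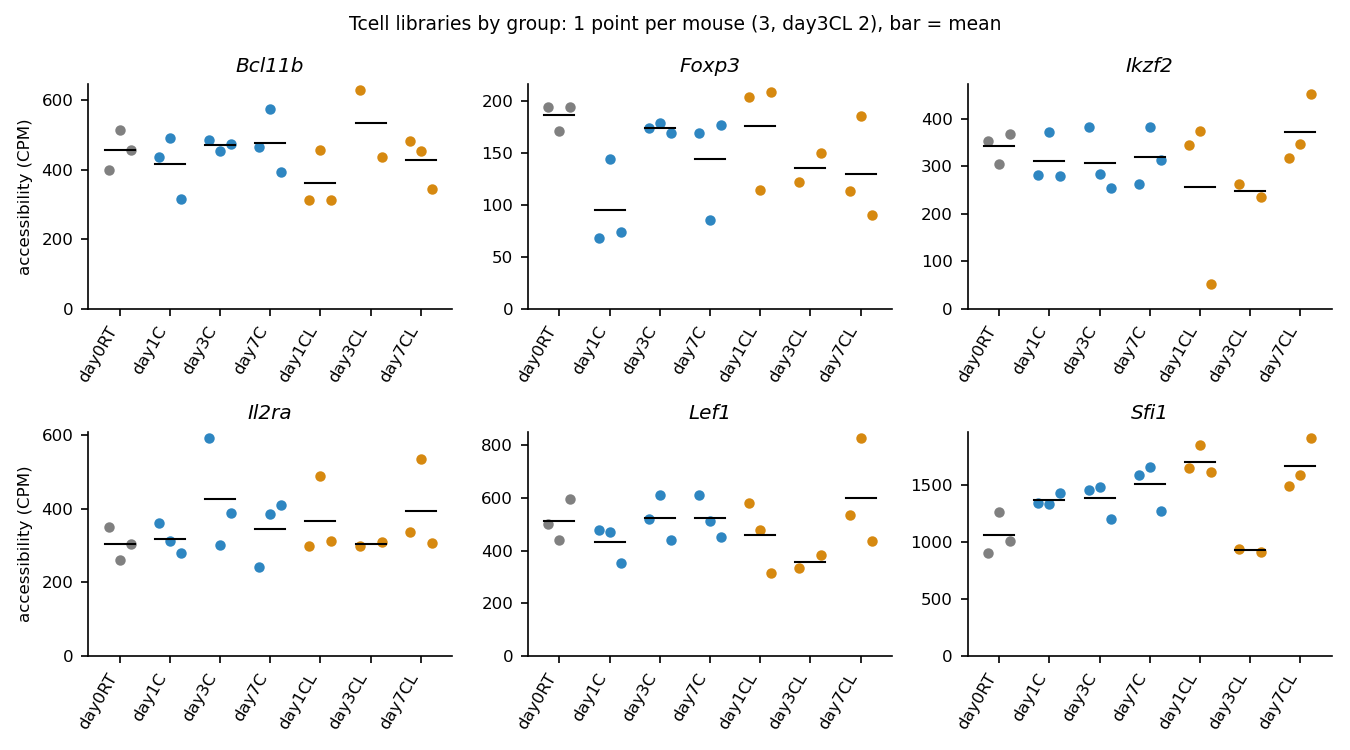
Accessibility (CPM, y axis from 0) of Bcl11b, Foxp3, Ikzf2, Il2ra, Lef1 and Sfi1 in the Tcell libraries of the 7 groups, with 1 point per mouse (3 mice, 2 at day3CL) and the bar at the mean. Sfi1 lies above day 0 in every mouse at day1CL, day7CL, day1C and day7C and in 2 of 3 at day3C, and within the day 0 range at day3CL, and Foxp3 is lowest at day1C, where it did not pass.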

How the data were processed

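Nuclei of 21 mice were profiled by combinatorial-indexing snATAC-seq. The authors aligned reads to mm10 with Bowtie2, called peaks with MACS2, removed doublets by score and clustered nuclei with Signac. The deposited matrix holds counts that the authors reduced to 0 or 1 for 189598 peaks and 32552 nuclei. The mouse, group and cluster of each nucleus came from the deposited metadata, since the 4 labelled samples are sequencing lanes. The experiment was run in 3 batches, and which mice formed each is not given in the sources used here.

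Counts were summed per mouse and cluster for mice with at least 10 nuclei. Gene values sum peaks over the gene body and 2000 bases upstream in GENCODE M21. Tests used edgeR 4.0.16 (R 4.3.3) with its quasi-likelihood test, TMM scaling, its filter on low counts (minimum 10) and Benjamini-Hochberg adjustment at 0.05. The cluster comparisons by edgeR had the mouse as a block. Shares were tested by exact permutation over mice. Alternatives were DESeq2 1.42.0, other filters, blocks, gene definitions and nuclei, and omission of mice. The steps were tested on simulated data.

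Named were all genes of 4 lists (regulatory, naive, CD4 and CD8 lineage), up to 4 of each other list, the largest differences consistent over mice with at least 20 counts, the 8 that differed most from all 3 clusters, and, for treatments, genes with at least 10 counts per library that passed or, where none did, the 3 with the smallest p. Other list members given as values were named after their values were seen. The members and lists were chosen with earlier results of these data known. The rule for printed sequences was the 4 highest peaks and the *Cd3e* promoter. Windows that overlap an annotated untranslated region were left out and the next named peaks printed. Some genes that the rule would name are not reported here.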

Additional observations from a re-analysis of the deposited data

How the results depend on the processing

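Counts of genes that differed from Cd4, Cd8 and Bcell were within 1.5 times of 1687, 1819 and 4450 with DESeq2, with no mouse block, with only the 2 clusters compared, with other minimum numbers of nuclei, and without either doubtful set. They moved with no filter on low counts (2619, 2802 and 7504, from more genes tested), with promoters only (353, 373 and 1861) and with thinned nuclei (450, 498 and 1567). Without each treatment group in turn they ranged from 1376 to 1637, from 1483 to 1805 and from 4043 to 4414. Counts of peaks moved from 1203, 1441 and 4235 to 12184, 16775 and 47644 with no filter and to 9, 18 and 140 with thinned nuclei. With DESeq2 the split against Cd4 was 1003 higher and 572 lower, and against Cd8 950 and 784. With promoters only, 4 single differences reversed: *Bcl11b* against Cd8 (0.0891), and against Bcell *Zbtb7b* (-0.0281), *Satb1* (-0.31) and *Bach2* (-0.56). The cause was not tested.

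Treatment counts were small and moved easily. With no filter they were 2 at day1C, 0 at day3C, 1 at day1CL and 0 over treated mice. With promoters only they were 0 at day3C, day1CL, day7CL and over treated mice, as they were without nuclei of shared barcodes. With DESeq2 they were 0 at day3C, 1 at day1CL, 1 at day7CL and 0 over treated mice. With at least 30 nuclei, which leaves out the same mice as omitting the lymphocyte-poor ones, they were 0 at day3C, 1 at day1CL and 2 over treated mice in both. With only the groups compared they were 0 at day3C and 1 at day7C. Without each mouse in turn they ranged from 0 to 1 at day1C, day3C, day7C and for cold against CL, from 0 to 3 at day1CL, from 1 to 4 at day7CL and from 0 to 2 over treated mice, while peaks remained at 0. Samples with the same replicate number had a median correlation of deviations near 0 (r = 0.001451 over 57 pairs, against 5.578e-05 over 114 others), although in all 18 pairs of mice that shared barcodes both mice had the same treatment and number. With the replicate block the counts were 0 at day3C, 2 at day1CL, 3 at day7CL and 1 over treated mice.

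The treated share was lower by -2.909 points of lymphocytes (exact permutation p = 0.0782) and -2.597 of T cells (p = 0.4316, exact permutation). Without each mouse in turn the difference ranged from -2.873 to -2.332 points of all nuclei, from -3.527 to -2.21 of lymphocytes and from -4.021 to -1.861 of T cells. Without the lymphocyte-poor mice that of lymphocytes passed at an unadjusted p (-2.87, exact permutation p = 0.03676). For cold against CL the difference of 0.653 points of all nuclei turned to -0.2719 of lymphocytes and -2.21 of T cells, which turned to 0.6042 and 0.8679 without the lymphocyte-poor mice. Without each mouse it ranged from 0.2097 to 1.106 of all nuclei, from -0.9052 to 0.4304 of lymphocytes and from -3.21 to 0.1891 of T cells, and of lymphocytes it was 0.1856 without mouse 1 of day3C. Few counts per nucleus limit single genes, and a gene that did not pass is not shown to be unchanged.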
